A study of Mus musculus with 2 samples.

Results

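The blood transcripts of imiquimod (IMQ)-treated mouse skin were examined through 7 genes, the haemoglobin genes Hbb-bt, Hbb-bs, Hba-a1 and Hba-a2, the red cell haem enzyme gene Alas2, and the platelet chemokine genes Ppbp and Pf4. They were chosen by symbol after earlier results on the same counts, in which blood genes led a fat-like group of spots, so their gathering in spots and their levels in either section are a description, with no test. Of the 7 genes, 6 had a row among the 19465 genes of the files, and Hba-a1 had none. Spatial transcriptomics was measured in 2 sections of back skin, 1 from an S1pr2 fl/fl mouse and 1 from an S1pr2 fl/fl K14-Cre mouse, spelled S1pr2 f/f and S1pr2 f/f K14-Cre in the labels and here called the control section and the K14-Cre section. Both mice carried floxed alleles of S1pr2, the sphingosine 1-phosphate receptor 2 gene. The K14-Cre transgene of the second mouse deletes them in keratinocytes that express K14. Both mice were treated from 8 weeks of age with 62.5 mg of 5% IMQ cream daily for 7 days, after depilation 1 day before, and no untreated section was analysed here. Each genotype is 1 mouse and 1 library, so a difference between the sections has no replicate check and cannot be told apart from a difference between these mice, samples or cuts.

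Red cells carry oxygen on haemoglobin, a tetramer of alpha and beta globin chains that each hold a haem group. Circulating mammalian red cells have no nucleus, and the youngest of them, the reticulocytes, still hold globin RNA. Hba-a2 and Hba-a1 encode alpha chains and Hbb-bt and Hbb-bs encode adult beta chains, while Alas2 encodes the erythroid form of the enzyme that starts haem synthesis. Ppbp and Pf4 encode chemokines stored in platelet granules, and platelets carry RNA from the megakaryocytes that shed them. In skin, blood runs through the vessels of the dermis and of the fat beneath it.

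The 150 bases upstream of each gene's start are shown because the 6 genes were chosen together although they lie on 4 chromosomes. The letters that the globin windows share can be seen beside those of the others. Sequences are from RefSeq on GRCm38.p6, read on the gene's own strand, and all 7 genes had an entry. The windows are chr7:103813924-103814073 and chr7:103827929-103828078 on the minus strand, and chr11:32296342-32296491, chrX:150547267-150547416, chr5:90768368-90768517 and chr5:90772285-90772434 on the plus strand. Capitals mark the letters CACCC of the CACCC box, the letters CCAAT of the CCAAT box, the letters GATAA that GATA factors favour and the letters TATAA of the TATA box, on either strand.
Hbb-bt: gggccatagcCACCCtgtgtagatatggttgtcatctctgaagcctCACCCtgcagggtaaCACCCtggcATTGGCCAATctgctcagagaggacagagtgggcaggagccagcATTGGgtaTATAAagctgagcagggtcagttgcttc
Hbb-bs: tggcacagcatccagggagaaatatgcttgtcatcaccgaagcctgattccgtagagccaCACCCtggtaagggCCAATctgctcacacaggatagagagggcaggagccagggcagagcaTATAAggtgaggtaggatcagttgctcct
Hba-a2: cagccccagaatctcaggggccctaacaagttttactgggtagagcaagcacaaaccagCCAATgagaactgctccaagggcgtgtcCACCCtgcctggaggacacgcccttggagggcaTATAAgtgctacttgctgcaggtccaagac
Alas2: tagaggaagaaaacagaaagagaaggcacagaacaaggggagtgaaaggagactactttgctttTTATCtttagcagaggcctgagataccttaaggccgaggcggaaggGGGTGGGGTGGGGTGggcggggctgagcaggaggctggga
Ppbp: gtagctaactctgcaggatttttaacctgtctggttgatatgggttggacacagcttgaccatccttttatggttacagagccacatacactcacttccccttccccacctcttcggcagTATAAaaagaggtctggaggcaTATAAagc
Pf4: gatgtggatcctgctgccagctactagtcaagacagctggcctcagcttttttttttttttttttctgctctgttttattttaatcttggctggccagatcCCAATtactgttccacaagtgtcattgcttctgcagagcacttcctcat

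All 3 measured globin windows held CACCC as well as CCAAT and also TATAA, a combination found in 1.1% of the 32851 mouse promoter windows of the same length. Alone, CACCC was in 37.4% of those windows, CCAAT in 24.5%, TATAA in 14.2% and GATAA in 13.3%. The Alas2 window held CACCC 3 times and GATAA 1 time, the Ppbp window held TATAA 2 times, and the Pf4 window held CCAAT 1 time, and no marked matches overlapped. These matches are a description of letters and not of binding. The 300-base windows of Hba-a1 and Hba-a2 shared an unbroken run of 297 bases. That run lies in promoter windows and does not show which copy the probes read. Whether UMIs listed under Hba-a2 may also come from Hba-a1 could not be checked.

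The control section had 1282 spots under tissue with 5315351 unique molecular identifiers (UMIs), and the K14-Cre section had 981 spots with 2845826. A spot is a small area of tissue that can hold several cells, and most spots of each section formed a single strip of 1203 and 970 spots. S1pr2 itself had 154 UMIs in the control section and 54 in the K14-Cre section, or 29.0 and 19.0 CPM, which are counts scaled to 1000000 UMIs. The 2 sections shared 357 spot barcodes, which name positions on the array and not cells. Levels are given as CPM of all UMIs of the spots concerned, and every interval is a 95% interval that covers counting error only. Levels of different genes are not read as relative amounts of RNA, since their probes and the number of these were not used here. Where counts of different genes are set side by side, as with receptor genes or shares of globin UMIs, they describe UMIs only.

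Globin transcripts made up a larger share of the control section than of the K14-Cre section, for each of the 3 measured globin genes. Hbb-bs had 4300 UMIs (809 CPM) in the control section and 549 UMIs (193 CPM) in the K14-Cre section, a log2 ratio of −2.07 of the latter over the former. Hba-a2 had 2798 UMIs (526 CPM) and 319 UMIs (112 CPM), a log2 ratio of −2.23. Hbb-bt had 546 UMIs (103 CPM) and 56 UMIs (19.7 CPM), a log2 ratio of −2.38. Summed, the globin level was 1438 CPM (1406 to 1471) against 325 CPM (304 to 346), or 4.43-fold lower (4.14 to 4.75) in the K14-Cre section. The 3 globin genes were thus lower together, while the median log2 ratio over 16838 genes with at least 30 UMIs was 0.34. Over those genes 26.1% were at least 2-fold higher and 4.77% at least 2-fold lower in the K14-Cre section, and with trimmed mean of M-values (TMM) scaling 16.7% and 11.6%, with a median of −0.03. Since the genes were chosen from these counts, nothing is read from that background. In a bulk level of this kind, fewer cells of a type and less RNA per cell cannot be told apart.

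**Figure D1:**
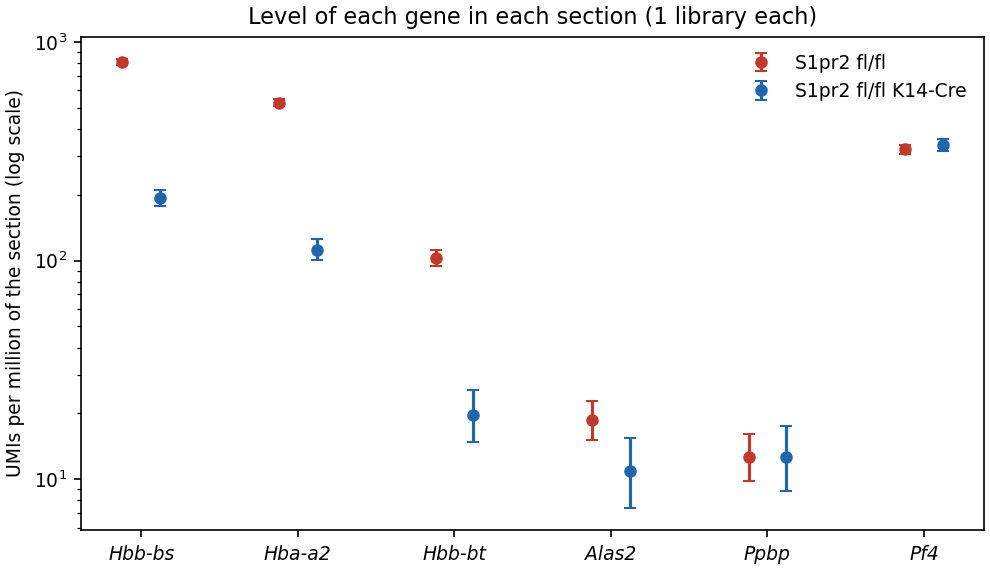
Level of the 6 measured genes in CPM of each section on a log axis, with exact Poisson 95% intervals that cover counting error only. The 3 globin genes lie higher in the control section, while the intervals of Ppbp and of Pf4 overlap between the sections.

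As reported, Alas2 and the platelet genes did not share the size of the globin difference, though for Alas2 this depended on the processing. Alas2 had 99 UMIs in 50 spots of the control section (18.6 CPM) and 31 UMIs in 17 spots of the K14-Cre section (10.9 CPM), a log2 ratio of −0.77 (−1.41 to −0.18). Ppbp had 67 UMIs in 44 spots (12.6 CPM) and 36 UMIs in 13 spots (12.7 CPM), a log2 ratio of 0.01 (−0.62 to 0.61). Pf4 had 1715 UMIs in 599 spots (323 CPM) and 965 UMIs in 394 spots (339 CPM), a log2 ratio of 0.07 (−0.04 to 0.19), which was −0.30 with TMM scaling. As reported, none of these 3 genes passed 2-fold in either direction. Alas2 was past 2-fold lower under 4 of 16 alternatives, at −1.15 with TMM scaling, −1.53 after thinning to 1000 UMIs a spot, −1.31 over the vessel list and −1.74 with the mean count of a receptor gene taken off. With the receptor mean taken off, the globin log2 ratio was −2.22, so no difference in size between Alas2 and globin is read. The Alas2 ratio became 0.02 without the largest globin patch of the control section and 0.65 without the spots highest in globin of both sections. That of Ppbp became −0.66 without the 2 spots of each section with the most Ppbp UMIs, which held 10 and 6 of its 36 UMIs in the K14-Cre section, −0.64 with the receptor mean taken off and 0.69 without the spots highest in globin.

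Alas2 and Ppbp had few UMIs, and their counts were set beside those of receptor genes known from sensory organs. The 1226 olfactory, vomeronasal and taste receptor genes had a mean of 11.8 UMIs in the control section and 17.0 in the K14-Cre section, and their summed log2 ratio was 1.43. Within the control section 99.9% of them were below Alas2 and 99.8% below Ppbp, while in the K14-Cre section 91.1% were below Alas2 and 95.8% below Ppbp. The counts of both genes thus stood closer to this floor in the K14-Cre section.

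The globin difference held in all stretches of the strips when each strip was divided along its length into 4 parts. Globin levels in the stretches of the control section were 2188, 913, 832 and 1169 CPM, and those of the K14-Cre section were 446, 457, 103 and 99.5 CPM. The stretches of the sections did not overlap, but stretches of 1 section are not replicates. Pf4 was at 300, 294, 212 and 387 CPM against 308, 311, 377 and 403 CPM, which overlapped. Alas2 ranged from 7.07 to 29.2 CPM in the control stretches and from 4.36 to 15.0 CPM in the K14-Cre stretches. Ppbp ranged from 2.64 to 34.2 CPM in the K14-Cre section, where 21 of its 36 UMIs lay in 1 stretch.

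Other tissue also differed between the sections, and its part in the globin difference was not tested. The summed level of 15 vessel endothelium genes was 580 CPM in the control section and 844 CPM in the K14-Cre section. Of these 15 genes 2 were past 2-fold higher in the K14-Cre section, beside 26.1% of all genes, and none lower. Their median log2 ratio was 0.61 beside 0.34 over all genes. The fat genes were at 3081 and 8079 CPM, the skeletal muscle genes at 21540 and 71682 CPM, and the epidermis genes at 51176 and 14936 CPM. The fat sum did not stand for its list, of which 1 of 12 genes was past 2-fold higher and 1 lower, with a median log2 ratio of 0.32 beside 0.34 over all genes. Against the vessel list as the denominator the globin log2 ratio was −2.69.

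Most globin UMIs lay in few spots. The 5% of spots with the highest globin share of their UMIs, among spots with at least 500 UMIs, are called haemoglobin-high spots. For the control section 54 of 1096 spots were haemoglobin-high and held 5351 of 7644 globin UMIs, or 70.0% (69.0 to 71.0, exact binomial). Within the K14-Cre section 47 of 947 spots held 557 of 924, or 60.3% (57.0 to 63.5). The highest globin share of a spot was 8.84% and 5.83% of its UMIs. The lowest share inside the limit and the highest outside it were 0.593% and 0.592% in the control section, and 0.1289% and 0.1287% in the K14-Cre section. The name therefore covers lower shares in the K14-Cre section, where 20 of the 47 spots held fewer than 5 globin UMIs.

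Within these spots the globin genes spanned a wide range. Globin UMIs per haemoglobin-high spot ran from 5 through a median of 79 to 364 in the control section, and from 1 through 6 to 77 in the K14-Cre section. Hbb-bs ran from 1 through 44 to 199 UMIs and from 0 through 2 to 53. Hba-a2 ran from 2 through 24.5 to 148 and from 0 through 3 to 23. Hbb-bt ran from 0 through 5.5 to 27 and from 0 through 0 to 7. The ranges overlapped. Median depths of haemoglobin-high and other spots were 4752 and 4261.5 UMIs in the control section, and 2454 and 2377.5 in the K14-Cre section.

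Low globin counts were found more widely. Any globin UMI was found in 527 spots (41.1%) of the control section and in 220 spots (22.4%) of the K14-Cre section. Thinned to 1000 UMIs a spot, with shallower spots left out, the shares were 28.2% of 978 spots and 12.3% of 870. The 10% of spots richest in epidermis genes, a tissue without vessels, still held a globin UMI in 21 of 109 spots (19.3%) and 15 of 94 (16.0%), against 478 of 987 and 203 of 853 other spots. Median depths of epidermis-rich and other spots were 3069 and 4423 UMIs in the control section, and 2332.5 and 2386 in the K14-Cre section. The globin level of epidermis-rich spots was 0.0344 times (0.0230 to 0.0495) that of the other spots in the control section and 0.194 times (0.119 to 0.298) in the K14-Cre section.

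**Figure D2:**
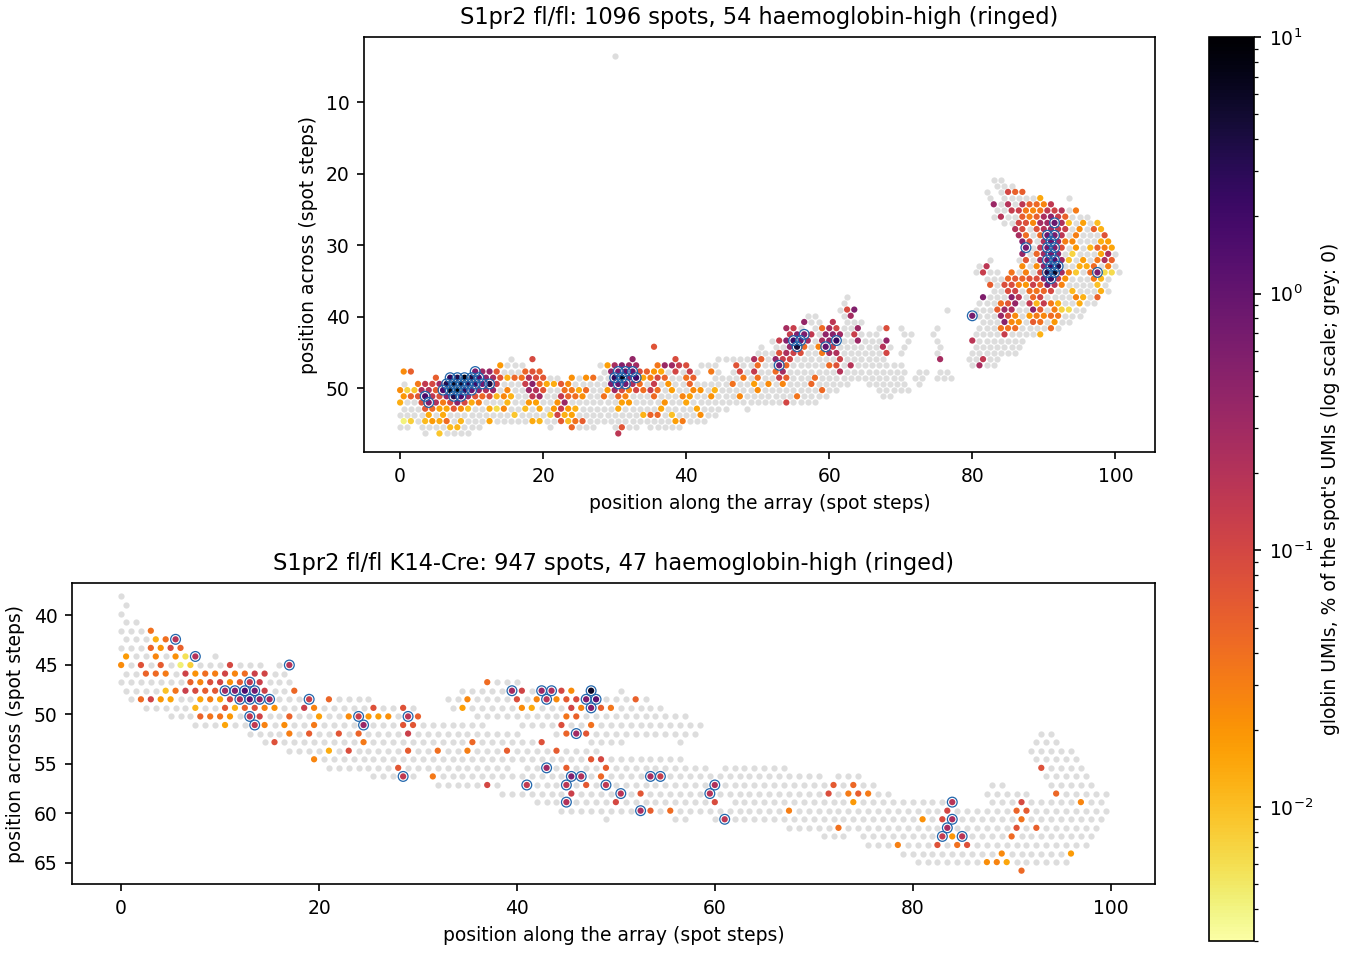
Each point is a spot with at least 500 UMIs at its place on the array, in spot steps, coloured by the globin percentage of its UMIs on a log scale, with grey for none and rings around haemoglobin-high spots. The control section shows dense patches, the largest of 20 spots, and the K14-Cre section shows smaller ones and more lone ringed spots.

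The haemoglobin-high spots adjoined each other more in the control section, where 45 of 54 lay in 4 patches of at least 4 touching spots. The patches had 20, 13, 8 and 4 spots and held 41.1%, 14.5%, 8.78% and 0.94% of the section's globin UMIs. For the K14-Cre section 13 of 47 lay in 2 patches of 9 and 4 spots, which held 25.8% and 15.3%. High spots with no high neighbour numbered 7 and 17. Without its largest patch, the control section was still the higher, with a globin log2 ratio of −1.41.

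The 3 largest patches of the control section held Alas2 and Ppbp as well as globin, and its patch of 4 spots had 2 Alas2 UMIs and no Ppbp UMI. In its largest patch globin was 73.0-fold the level of the spots outside high spots, Alas2 74.3-fold (45.5 to 123, 43 UMIs) and Ppbp 28.8-fold (15.8 to 51.1, 20 UMIs). In the next, globin was 40.1-fold, Alas2 26.8-fold with 10 UMIs and Ppbp 11.2-fold with 5. In the patch of 8 spots globin was 38.6-fold, Alas2 42.7-fold and Ppbp 17.8-fold. Vwf, which encodes von Willebrand factor of endothelium and platelets, was 13.7-fold, 5.58-fold and 8.00-fold in these 3 patches.

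The patches differed in the tissue around the blood. Skeletal muscle genes were 1.94-fold and 2.91-fold in the patches of 20 and 8 spots but 0.0715-fold in the patch of 13 spots. Fat genes were 2.65-fold, 2.31-fold and 1.99-fold in these 3 patches. In the K14-Cre section the patch of 9 spots had globin at 42.0-fold, fat genes at 2.38-fold and vessel genes at 1.96-fold, with 2 Alas2 UMIs. Its patch of 4 spots had globin at 105-fold, mural genes at 5.62-fold, vessel genes at 3.89-fold and fat genes at 2.54-fold, with no Alas2 and no Ppbp UMI.

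Globin, by which the high spots were chosen, was lower within a few spots of them. Away from the haemoglobin-high spots of the control section the level went from 22281 CPM in them to 2031 CPM at 1 step, 429 CPM at 2 steps, 195 CPM at 3 to 5 steps and 272 CPM farther out. Within the K14-Cre section it went from 4192 to 310, 148, 97.5 and 54.9 CPM. Neighbours of high spots, not high themselves, were 7.85-fold (7.22 to 8.54) above the remaining spots in the control section and 3.27-fold (2.64 to 4.05) in the K14-Cre section. Alas2 followed in the control section, with 18 UMIs in 103 neighbours against 12 in 939 remaining spots, a ratio of 13 (5.91 to 29.5). For the K14-Cre section Alas2 had 1 UMI in 148 neighbours and 25 in 752 remaining spots.

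Vessel and fat genes, which did not choose the high spots, were also lower away from them. The globin step follows in part from the choice of spots by globin, so step sizes are not compared. Vessel genes in the control section were at 1486 CPM in the high spots, 916 CPM at 1 step, 738 CPM at 2 steps, 467 CPM at 3 to 5 steps and 429 CPM beyond. Fat genes there were at 6758, 6486, 4640, 2131 and 2086 CPM, so the neighbours were nearly as high as the high spots. In the K14-Cre section fat genes went from 16672 CPM to 10884, 8160, 7397 and 5612 CPM, while vessel genes went from 1317 to 897, 797, 846 and 767 CPM. Pf4 was at 637 CPM in the high spots of the control section and 233 CPM farthest out. In the K14-Cre section Pf4 went from 324 CPM in the high spots to 352, 307, 376 and 322 CPM, with no steady fall.

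**Figure D3:**
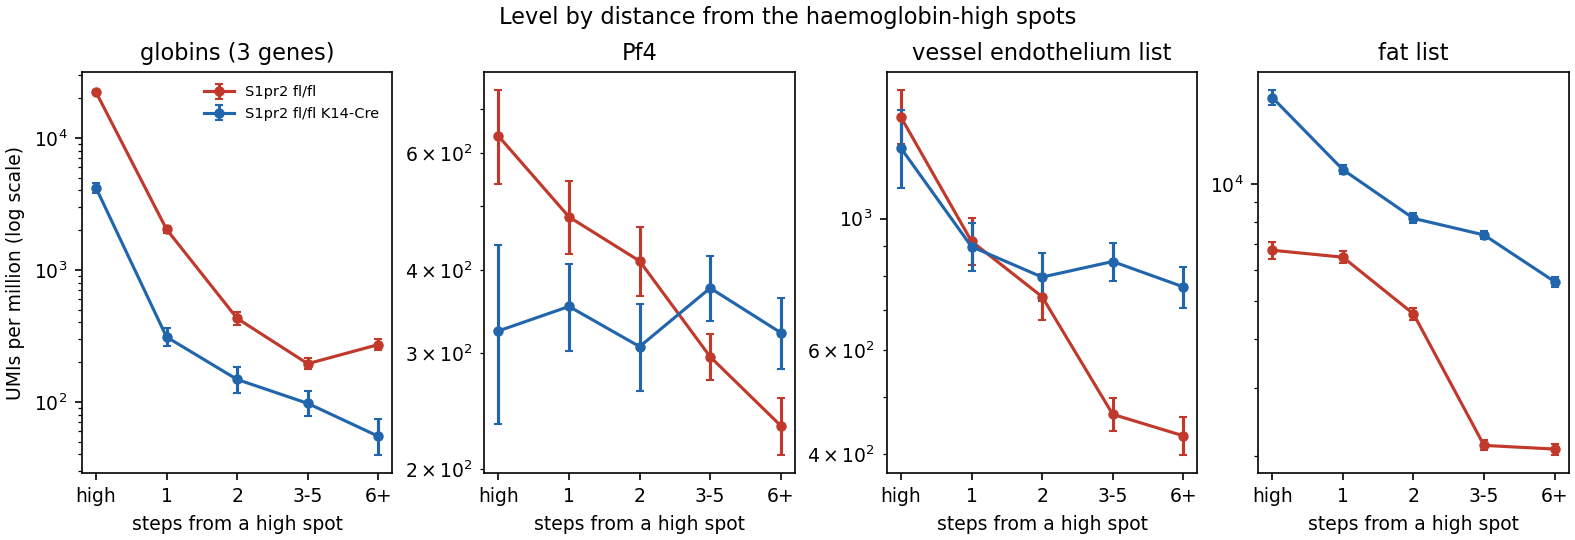
Level in CPM, on log axes that differ between panels, of globin, Pf4, the vessel list and the fat list by the number of spot steps from the nearest haemoglobin-high spot, with exact Poisson 95% intervals. Globin, by which the high spots were chosen, goes in the control section from 22281 CPM in them to 2031 CPM at 1 step. The fat list, which did not choose them, goes from 6758 to 6486 CPM.

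The summed vessel level was higher in the haemoglobin-high spots of both sections, with more of the list past 2-fold in the control section. In the control section, levels in high spots over other spots passed 2-fold upward in 9 of 15 vessel genes, beside 12.2% of 12292 genes, and no vessel gene passed it downward, beside 14.4%. The median log2 ratio of the list was 1.60 against 0.07 over all genes, and its summed ratio was 2.84 (2.53 to 3.17). Vwf was 9.23-fold, Tie1, an endothelial receptor kinase, 4.64-fold, and Egfl7, a protein secreted by endothelium, 3.75-fold, while Robo4 was at 0.58-fold. Within the K14-Cre section 3 of 15 passed 2-fold upward, beside 10.6% of 12807 genes, and 27.9% of genes passed it downward. The list's median there was 0.31 against −0.21 over all genes, and its summed ratio was 1.61 (1.37 to 1.88). Vwf was 4.60-fold, Egfl7 2.49-fold and Cldn5, a tight junction gene of endothelium, 2.04-fold. None passed it downward, and the lowest were Tek, an endothelial receptor kinase, at 0.619-fold, the adhesion gene Pecam1 at 0.681-fold, and Emcn and Tie1 both at 0.705-fold, each from 1 or 2 UMIs in the high spots. The 7 member genes were left out of the totals in all these ratios, and spots of 1 section are not replicates.

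The summed level of mural genes, of the smooth muscle cells and pericytes that wrap vessels, was also higher in the high spots of both sections. In the control section 7 of 12 passed 2-fold upward and in the K14-Cre section 5 of 12, with summed ratios of 2.07 and 2.28. Over all genes 12.2% and 10.6% passed it upward, and 14.4% and 27.9% downward. Of the mural genes none passed downward in the control section, where Notch3 was lowest at 0.801-fold. In the K14-Cre section 1 did, the pericyte receptor gene Pdgfrb at 0.406-fold with 3 UMIs in the high spots. Cnn1, a smooth muscle calponin, was 3.30-fold and 6.43-fold, and Acta2, smooth muscle actin, was 2.79-fold and 3.73-fold. Myh11, smooth muscle myosin, was 3.06-fold in the control section, and Tagln was 3.68-fold in the K14-Cre section. Of the lymphatic endothelium list 3 of 6 genes passed 2-fold upward in the control section, with Mmrn1 at 6.31-fold, Lyve1 at 5.36-fold and Reln at 3.65-fold. In the K14-Cre section none of 5 passed upward and 2 passed downward, beside 27.9% of all genes downward. The summed ratio of the lymphatic list there was 0.933 (0.615 to 1.36).

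Fat genes had a larger share of the list past 2-fold than vessel or mural genes in both sections. Within the control section 9 of 11 passed, with a summed ratio of 2.39 (2.26 to 2.51), and in the K14-Cre section 7 of 10, with 2.18 (2.09 to 2.28). Over all genes 12.2% and 10.6% passed it upward. Adipoq, the fat cell hormone adiponectin, was 3.16-fold and 4-fold. Retn, which encodes resistin, was 2.91-fold and Fabp4, a fatty acid carrier, 2.70-fold in the control section. Cidec and Plin1, which coat lipid droplets, were 3.21-fold and 3.10-fold in the K14-Cre section. The lowest of the list was Plin4, at 1.5-fold and 1.65-fold.

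Some but not all red cell genes other than globin were higher in the high spots of the control section. Alas2 itself was 48.6-fold (31.2 to 77.4) there, with 68 of its 99 UMIs (68.7%) in 29 of the 54 spots. Of 13 other red cell genes with at least 30 UMIs, 7 passed 2-fold upward, beside 12.2% of all genes. Among these 7 were Ube2l6 at 7.26-fold and Isg20 at 5.44-fold. Tfrc, the transferrin receptor, was lowest at 0.888-fold. Defining red cell genes, named for that role, had few UMIs in that section, with 18 for Slc4a1, of which 1 lay in a high spot, and 21 for Klf1, none of these in a high spot. None of the 8 other haem synthesis genes passed 2-fold upward, with Fech at 1.82-fold, and Cpox was at 0.424-fold. Among 10 genes that handle haem and iron, 4 passed, with Hp, the haemoglobin-binding haptoglobin, at 3.39-fold and the haem oxygenase Hmox1 at 0.826-fold.

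Some but not all platelet genes were higher in the high spots of the control section. Ppbp was 17.9-fold (10.6 to 29.8) in its high spots, with 30 of 67 UMIs (44.8%) in 15 spots, and Pf4 was 2.11-fold (1.78 to 2.49), with 8.92% of its UMIs in 42 spots. Of 15 other platelet genes 6 passed 2-fold upward, beside 12.2% of all genes. These 6 were led by Tubb1, a platelet tubulin, at 15.2-fold, Nrgn at 13.6-fold and Mmrn1 at 6.31-fold. Mmrn1 stands in both the platelet and the lymphatic list. The lowest was Gp5, at 0.65-fold.

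In the K14-Cre section few genes of these lists passed 2-fold upward. Alas2 was 3.93-fold (1.18 to 10.4) with 5 UMIs in 4 of 47 spots, Ppbp 2.55-fold (0.656 to 7.20) with 4 UMIs in 2 spots, and Pf4 0.953-fold (0.685 to 1.29) with 43 UMIs in 14 spots. Of 13 other red cell genes 1 passed 2-fold upward, Ube2l6 at 3-fold, and 3 passed downward. Of 9 other platelet genes none passed upward and 3 downward, and Gp9 and Itgb3 had no UMI in the high spots. Beside the 10.6% of all genes upward and 27.9% downward there, nothing is read from these counts. Hp was 1.94-fold. The difference between the sections in these ratios was not tested.

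**Figure D4:**
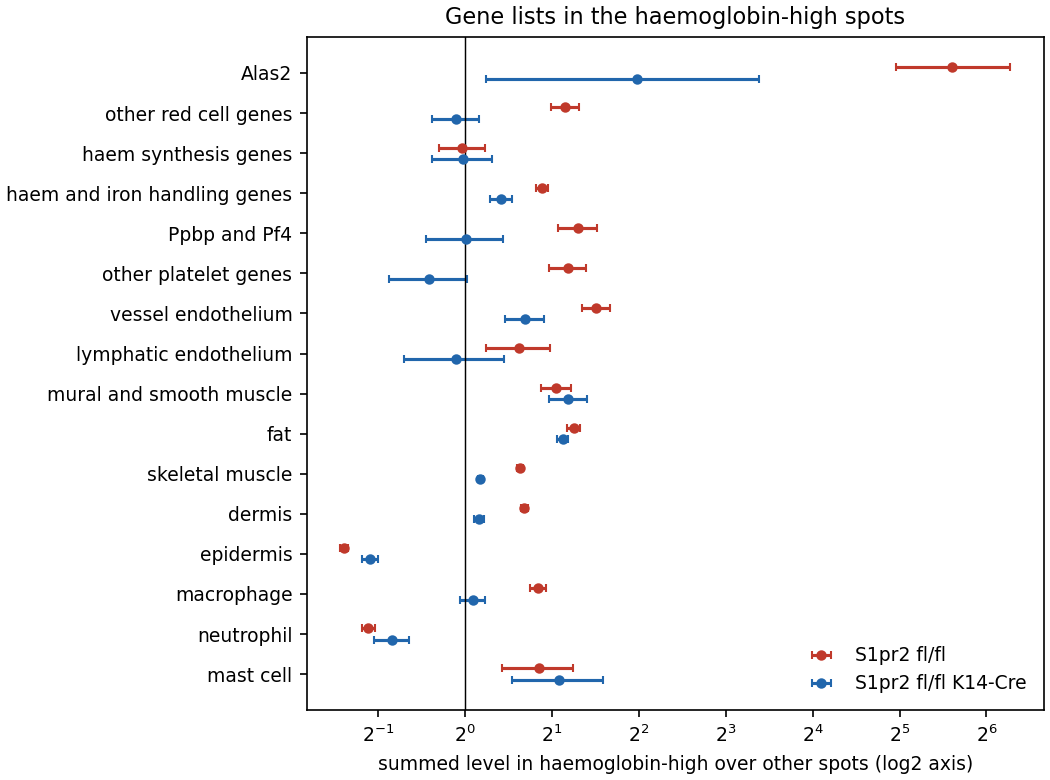
Summed level of each gene list in haemoglobin-high spots over other spots with at least 500 UMIs, on a log2 axis, with 95% intervals for counting error. Vessel, mural and fat lists lie above 1 in both sections, and epidermis and neutrophil lists lie below 1. Alas2, Ppbp with Pf4, and the other red cell, other platelet and haem and iron handling lists lie farther right in the control section. The haem synthesis list lies at 0.979 in the control section and 0.986 in the K14-Cre section.

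Epidermis genes were lower in the high spots. In the control section 14 of 15 passed 2-fold downward, beside 14.4% of all genes, and in the K14-Cre section 9 of 15, beside 27.9%. The summed ratios of the epidermis list were 0.381 (0.370 to 0.392) and 0.468 (0.439 to 0.499). Skeletal muscle genes were at 1.56-fold and 1.13-fold, dermis genes at 1.60-fold and 1.12-fold, and macrophage genes at 1.79-fold (1.68 to 1.90) and 1.06-fold (0.964 to 1.17). Mast cell genes were at 1.80-fold and 2.12-fold, and the summed neutrophil level at 0.463-fold and 0.558-fold. That sum was mostly S100a8 (0.304-fold and 0.450-fold) and S100a9 (0.567-fold and 0.604-fold). By gene, none of 6 neutrophil genes passed 2-fold upward and 2 downward in the control section. In the K14-Cre section 2 of 7 passed upward and 1 downward. Over all genes 12.2% and 10.6% passed upward. The neutrophil list's median log2 ratio in the K14-Cre section was 0.63, and Csf3r, a neutrophil growth factor receptor, was at 3.88-fold there. Distances went with these values in the control section, where the median high spot lay 6.08 spot steps from the nearest epidermis-rich spot and the median other spot 3.61. For the K14-Cre section they lay 3 and 3.46 steps away.

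Ordered the other way, by tissue, globin was highest in the spots richest in mural genes in both sections. The 10% of spots with the highest share of each list were compared with the remaining spots, and these classes are ranges of a share, can overlap and are not cell types. For the control section the globin ratio was 7.54 (7.19 to 7.90) in mural-rich spots, 5.36 (5.11 to 5.63) in vessel-rich, 2.51 (2.36 to 2.67) in macrophage-rich, 2.10 (1.97 to 2.24) in mast cell-rich, 1.59 (1.48 to 1.70) in fat-rich and 1.37 (1.28 to 1.48) in dermis-rich spots. Muscle-rich spots were at 0.733 (0.662 to 0.810). Of the neighbours in that order, the fat-rich and dermis-rich intervals nearly met and the others were farther apart. In the K14-Cre section the ratio was 4.69 (4.06 to 5.40) in mural-rich spots, 4.26 (3.66 to 4.93) in mast cell-rich, 3.42 (2.96 to 3.96) in fat-rich and 2.73 (2.32 to 3.20) in vessel-rich spots, with overlapping intervals between neighbours. It was 1.01 (0.828 to 1.23) in dermis-rich, 0.657 (0.496 to 0.855) in macrophage-rich and 0.616 (0.471 to 0.794) in muscle-rich spots.

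Most haemoglobin-high spots were neither vessel-rich nor fat-rich. Of the haemoglobin-high spots 19 of 54 (35.2%) were vessel-rich in the control section and 8 of 47 (17.0%) in the K14-Cre section, where vessel-rich spots were 9.95% and 9.93% of all spots counted. Fat-rich were 6 (11.1%) and 9 (19.1%). Fat-rich or vessel-rich together were 23 (42.6%) and 17 (36.2%), beside 18.1% and 18.5% of all spots.

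Pf4 followed another order than globin. Spots with at least 500 UMIs that were not haemoglobin-high held 90.7% of its UMIs in the control section and 95.5% in the K14-Cre section. Which cells these UMIs came from was not tested. The Pf4 ratio was highest in macrophage-rich spots in both sections, at 2.34 (2.04 to 2.68) and 2.13 (1.79 to 2.51). Next were dermis-rich spots in the control section, at 2.04 (1.78 to 2.33), and vessel-rich spots in the K14-Cre section, at 1.57 (1.29 to 1.89). The highest and next intervals overlapped in both sections. Mast cell-rich spots were close to the next, at 1.99 (1.73 to 2.28) and 1.55 (1.26 to 1.89), so this order is not settled. The Pf4 ratio was lowest in epidermis-rich spots, at 0.112 and 0.312. Alas2 in the control section was 5.28-fold (3.33 to 8.19) in vessel-rich and 0.899-fold (0.352 to 1.93) in fat-rich spots, and it had no UMI in vessel-rich spots of the K14-Cre section. Ppbp in the control section was 3.65-fold (1.94 to 6.52) in vessel-rich and 1.39-fold (0.534 to 3.04) in fat-rich spots.

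**Figure D5:**
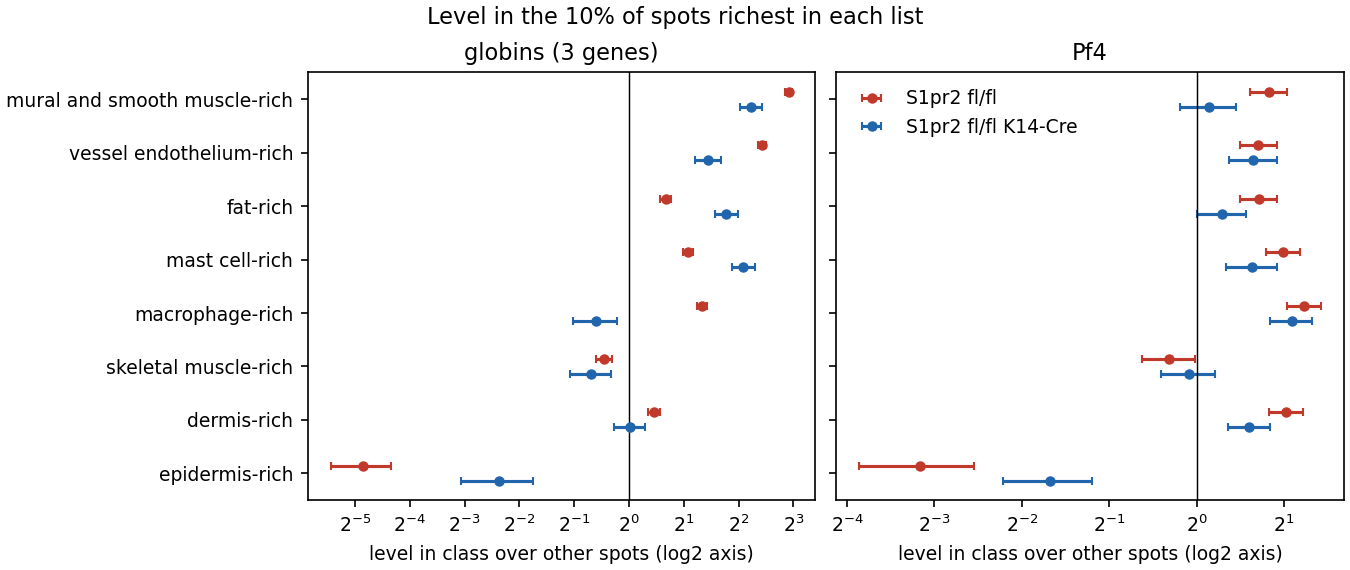
Level of globin and of Pf4 in the 10% of spots richest in each list over the level in the remaining spots, on log2 axes, with 95% intervals for counting error. Globin is highest in mural-rich spots in both sections, and macrophage-rich spots are at 2.51 in the control section and 0.657 in the K14-Cre section. Pf4 is highest in macrophage-rich spots in both, with intervals that overlap those of other classes.

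Pf4 also differed from globin in the genes that varied with it over spots. In the control section the order of the lists by correlation with globin was not that of the classes. Levels as log2(CPM + 100) over 1096 spots of the control section were most like summed globin for Cfd (Pearson's r = 0.39), Hp (0.37), Car3 (0.37), Clec3b (0.36) and Fabp4 (0.36). Cfd, Car3 and Fabp4 are fat list genes. Over 947 spots of the K14-Cre section the first 5 were Flna, Serpinh1, Vwf, Sparc and Tagln, each at 0.18. With globin, r was 0.40 for the fat list and 0.35 for the vessel list in the control section, and 0.15 and 0.13 in the K14-Cre section. For the macrophage and mural lists it was 0.31 and 0.29 in the control section, and 0.12 and 0.16 in the K14-Cre section. Pf4 in the control section, by the same measure applied afterwards, was most like Dcn (0.45) and Saa3 (0.44), and in the K14-Cre section most like Selenop (0.26) and Col3a1 (0.25). Its r with the macrophage list was 0.43 and 0.27, and with globin 0.25 and 0.04. These correlations carry no test, since the spots share 1 library and vary together in depth.

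Spot by spot, Alas2 and globin were found together in the control section. Hbb-bs was present in 47 of the 50 spots with Alas2 there (94.0%), which are 11.6% of the 405 spots with Hbb-bs, and in 6 of 17 (35.3%) in the K14-Cre section. Spots with Alas2 had globin at 23.7-fold (22.6 to 24.8) and 3.13-fold (2.44 to 3.97) the level of those without. Ppbp and Alas2 met in 12 spots of the control section and in none of the K14-Cre section. Spots with Ppbp had globin at 12-fold (11.5 to 12.6) and 2.80-fold (2.03 to 3.76), and spots with Pf4 at 3.19-fold (3 to 3.40) and 1.04-fold (0.915 to 1.19). The 2.80-fold rests on 46 globin UMIs in 13 spots. Of these spots 1, with 1 Ppbp UMI, held 25 Hbb-bs and 10 Hba-a2 UMIs. The spots of that section with the most Ppbp UMIs, 10 and 6, held no globin UMI. Median depths were greater in spots with each gene, for Pf4 5317 against 1438 UMIs in the control section. The spot with the most Pf4 in the control section held 17 of its UMIs and none of globin.

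Over all spots the make-up of the globin UMIs was close in the sections although their level was not. Hbb-bs was 56.3% (55.1 to 57.4), Hba-a2 36.6% (35.5 to 37.7) and Hbb-bt 7.14% (6.58 to 7.74) of globin UMIs in the control section. Within the K14-Cre section they were 59.4% (56.2 to 62.6), 34.5% (31.5 to 37.7) and 6.06% (4.61 to 7.80). By spot group the make-up differed more. In the high spots Hbb-bs was 55.9% (54.6 to 57.2) in the control section and 63.2% (59.0 to 67.2) in the K14-Cre section. Hba-a2 was 36.9% (35.6 to 38.2) and 31.4% (27.6 to 35.5) in them. Neighbours of high spots went the other way, with Hbb-bs at 59.3% (56.3 to 62.3) and 51.0% (42.8 to 59.1). These differences were not tested. Alas2 UMIs per 100 globin UMIs were 1.30 (1.05 to 1.58) in the control section and 3.35 (2.28 to 4.76) in the K14-Cre section. In the high spots these were 1.27 (0.987 to 1.61) and 0.898 (0.291 to 2.09), with overlapping intervals. Away from high spots and their neighbours they were 1.03 (0.531 to 1.80) and 12 (7.74 to 17.7), the latter from 25 Alas2 UMIs over 752 spots. The mean receptor gene had 11.8 UMIs in the control section and 17.0 in the K14-Cre section, beside 99 and 31 for Alas2. That floor was not taken off these values, so no difference in Alas2 per globin is read from them.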

How the data were processed

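Skin sections of 10 μm from formalin-fixed, paraffin-embedded tissue were profiled by Visium CytAssist, with a capture area 11 mm wide. What the authors deposited are raw, unscaled UMI counts of each gene in every spot under tissue, produced by Space Ranger (3.0.0 per the file headers) against mm10. The genes and all gene lists were chosen with earlier results of these data known, so no count over them is independent evidence. Named genes were the 7 genes, S1pr2 and the 5 ranked genes most like summed globin in each section. Up to 3 highest and 3 lowest genes of each list with at least 30 UMIs were also named. Counts were summed over spots and scaled to CPM with Python 3.11.15, with exact Poisson, Clopper-Pearson or conditional binomial 95% intervals. Spots under 500 UMIs were left out of spot classes. With 1 library per genotype no test was run and no p-value is given. Alternatives included TMM scaling (edgeR 4.0.16), thinning to 1000 UMIs, other limits for high spots and leaving out patches. Total counts were 5315351 and 2845826 UMIs, and the floor allowed by a count of 0 is 3 UMIs. The sums were tested on simulated data. A few genes that the naming rule would give are not reported here.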

Additional observations from a re-analysis of the deposited data

Results flagged for a closer look

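Globin differed in direction between the sections in macrophage-rich spots. Relative to the remaining spots its level was 2.51 (2.36 to 2.67) in the control section and 0.657 (0.496 to 0.855) in the K14-Cre section, and the difference was not tested. Spots outside the main strip of the control section, which no comparison by stretch used, held signal above the 3 UMIs that a count of 0 allows. These 79 spots had 13 globin UMIs (552 CPM) and 11 Pf4 UMIs (467 CPM).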

How the results depend on the processing

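The globin log2 ratio between the sections was below −1 under all 16 alternatives, and 6 lay inside the counting interval. It was −2.52 with TMM scaling, −2.39 as a mean of spot levels, −2.49 after thinning to 1000 UMIs, −2.69 over the vessel list and −1.74 without high spots. Alternatives chosen after seeing the data left out a patch, which gave −1.41, −1.94 and −2.03 without the 3 largest control patches, and −2.56 and −2.38 without the K14-Cre patches. For the control section, high spots held 48.0% of globin UMIs at the highest 2% of spots, 82.4% at 10%, 72.0% ranked by globin UMIs and 67.9% at 1000 UMIs per spot. The neighbour ratio was then 12.2, 5.33, 6.57 and 9.13. For the K14-Cre section the shares were 45.5% at 2%, 78.1% at 10% and 69.0% ranked by UMIs, with neighbour ratios of 4.30, 2.35 and 2.44. The vessel ratio was 2.53 at 10% in the control section, and 2.24 at 2% and 1.32 at 10% in the K14-Cre section. The fat ratio was 1.82 at 2%, 2.72 at 10%, 2.69 ranked by UMIs and 2.15 without the largest patch in the control section, and 3.20, 1.74, 1.91 and 2.09 in the K14-Cre section. The Ppbp ratio in high spots of the K14-Cre section reversed to 0.279 when spots were ranked by globin UMIs. In the control section the Ppbp ratio ran from 9.93 to 34.9, and Alas2 from 29.8 to 60.1. Genes at least 2-fold higher in the K14-Cre section numbered 4402, 703 with at least 100 UMIs and 2807 with TMM. Those lower numbered 803, 722 with at least 100 UMIs and 1949 with TMM. The Pf4 log2 ratio changed sign with TMM (−0.30), thinning (−0.25) and the vessel denominator (−0.47). The cause of these changes was not tested, beyond the fewer spots or genes that a limit leaves. No paired analysis was possible because each genotype has 1 library. Depth limits Alas2 and Ppbp most, with 31 and 36 UMIs in the K14-Cre section.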
